A study of Mus musculus with 12 samples.

Results

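The zona pellucida genes *Zp1*, *Zp2* and *Zp3*, the ovastacin gene *Astl* and the tetraspanin gene *Cd9* were examined in GV-stage mouse oocytes with and without *Lsm14b*. They were taken by symbol from the deposited expression table, where each of the 5 had 1 entry among 24259 gene symbols. RNA was sequenced from 2 pools of a sucrose gradient, the RNP pool (fractions 1 to 10, messenger ribonucleoprotein without polysomes) and the polysome pool (fractions 11 to 28, mRNA loaded with ribosomes). WT and *Lsm14b*-KO oocytes gave 3 libraries of each pool, 12 in all, and the study used the polysome pool to ask whether loss of the RNA-binding protein LSM14B alters translation of oocyte mRNAs. All oocytes came from mice of 3 weeks of age, 46 h after 5 IU of PMSG, a hormone that drives follicle growth, and about 1500 oocytes, hence oocytes of many animals, went into a lysate. KO mice were homozygous for *Lsm14b* tm1a(KOMP)Mbp on a C57BL/6J background, a reporter-tagged insertion allele carried by every cell of the animal. The study's methods and protein stainings place LSM14B in oocytes and not in granulosa cells, and showed its loss in KO oocytes. The labels do not say whether replicates came from separate collections of animals, so p-values measure the spread between these libraries, which may be technical.

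Mouse oocytes secrete ZP1, ZP2 and ZP3 during growth, and the glycoproteins assemble outside the cell into the zona pellucida, the coat that surrounds the egg. ZP2 and ZP3 form filaments that ZP1 cross-links, and the N-terminal part of ZP2 is the site where sperm bind. After fertilization the protease ovastacin, encoded by *Astl*, is released from cortical granules and cleaves ZP2, which ends sperm binding. CD9 sits in the egg plasma membrane, where it is required for fusion with sperm, and is also made by many other cell types. The transcription factor FIGLA activates the zona genes through E-boxes, the motif CANNTG, in their promoters.

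On GRCm38 with GENCODE M21, *Zp1* lies on the minus strand at chr19:10914287-10920632, *Zp2* on the minus strand at chr7:120126772-120145291 and *Zp3* on the plus strand at chr5:135980099-135988624. *Astl* lies on the plus strand at chr2:127338639-127357651 and *Cd9* on the minus strand at chr6:125460266-125494791. All 5 are protein-coding, and the values refer to whole genes, exons and UTRs included. The *Zp2* locus in the deposited table starts at 120132359, inside the GENCODE gene, so the annotated stretch beyond it lay outside the counted locus. *Cd9* overlaps the noncoding genes *Gm26728* and *Gm28809*, neither of which has an entry in the table. Whether strand was used in counting is not given in the sources used here, so reads of the overlapping stretch cannot be told apart.

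The 250 bases upstream of the RefSeq start are shown for the members with an entry, *Zp3*, *Astl* (the first of its 2 annotated starts) and *Cd9*, because E-boxes in such windows are the known sites of FIGLA at zona genes. They run 5′ to 3′ on the strand of the gene, on GRCm38.p6, and capitals mark CANNTG and TATAA. The windows are chr5:135979855-135980104 (plus strand), chr2:127338389-127338638 (plus strand) and chr6:125494761-125495010 (minus strand).
Zp3: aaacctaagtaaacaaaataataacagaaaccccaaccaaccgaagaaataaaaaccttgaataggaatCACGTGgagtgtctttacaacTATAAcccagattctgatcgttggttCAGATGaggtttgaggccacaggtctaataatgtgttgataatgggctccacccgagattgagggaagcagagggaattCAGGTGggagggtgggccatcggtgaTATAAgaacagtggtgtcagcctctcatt
Astl: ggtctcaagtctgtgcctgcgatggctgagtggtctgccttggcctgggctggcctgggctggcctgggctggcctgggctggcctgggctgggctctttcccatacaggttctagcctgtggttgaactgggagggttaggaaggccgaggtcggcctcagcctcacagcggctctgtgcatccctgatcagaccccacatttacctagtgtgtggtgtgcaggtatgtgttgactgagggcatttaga
Cd9: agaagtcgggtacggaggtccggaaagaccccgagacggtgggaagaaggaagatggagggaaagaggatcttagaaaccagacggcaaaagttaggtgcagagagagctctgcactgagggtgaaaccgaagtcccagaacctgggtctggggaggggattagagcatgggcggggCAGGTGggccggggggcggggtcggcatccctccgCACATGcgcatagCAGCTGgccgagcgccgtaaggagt

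The *Zp3* window holds CANNTG at 181, 134 and 55 bases before the start, and the first of these is the palindrome CACGTG. This palindrome, itself a form of CANNTG, occurs in 6.02% of 32851 RefSeq windows of the same length, and CANNTG in 66.2%. TATAA, searched on both strands like the other motifs, lies 160 and 29 bases before the *Zp3* start and occurs in 22.8% of windows. The *Astl* window holds none of the 3 motifs, while the *Cd9* window holds CANNTG at 73, 38 and 25 bases before its start. At the second annotated start of *Astl*, the form CAGGTG occurs at 109, 83 and 59 bases before it. A motif match is a description of these letters and not a binding site.

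Values are in FPKM, the fragments of a gene per kilobase of its transcript and per M (mega) mapped fragments of the library. Each pool was amplified on its own, so an FPKM is read as a relative abundance within its pool. Depth, estimated from the steps of the lowest FPKM values, lay between 4.69 and 7.87 M fragments per library. On that estimate between 131 and 19100 fragments stood behind a member's value, with the fewest for *Zp2* in the RNP pool, where counting error alone amounts to 8.74%. In the KO polysome library of replicate 2 the 10 most abundant genes took 34.7% of the summed FPKM, against 11.6% to 14.7% in the others. A single gene, *Mir300*, stood at 170809 of the 698228 FPKM summed in that library. Since FPKM is divided by transcript length, this is not its share of the fragments. *Lsm14b* checked the labels: it was at 11.3 to 15.3 FPKM in WT and at most 0.260 in KO polysome libraries, and at 27.4 to 34.6 in WT and at most 0.893 in KO RNP libraries.

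Of the markers of other ovarian cells, those of theca and stroma summed to at most 3.22 FPKM in a library, and 5 of the 6 blood and immune markers were at 0 in every library. The 12 granulosa and cumulus markers summed to 141 to 223 FPKM in WT and 233 to 324 in KO polysome libraries, and to 197 to 222 in WT and 225 to 262 in KO RNP libraries. Of the 12, a mean of at least 1 FPKM was reached by 5 in WT and 8 in KO polysome libraries, and by 4 and 5 in RNP libraries, and *Serpine2* made up most of each sum. In the polysome pool 4 of the 12 were higher in KO without overlap, against 18.2% of 9536 genes tested, and 0 lower. These were *Inha* (0 to 9.58 FPKM in WT, 39.4 to 51.4 in KO), *Inhba* (0 to 0.252 and 3.72 to 11.9), *Fshr* (0 to 0.700 and 3.14 to 6.74) and *Gja1* (0 and 4.91 to 10.9). The genes tested had at least 1 FPKM in at least 3 libraries, a filter not applied to the markers. *Inhba*, *Fshr* and *Gja1* would pass it only through KO, so count and share are over unlike sets. *Cyp19a1* overlapped, at 19.0 to 62.0 FPKM in WT and 14.6 to 34.5 in KO, as did *Serpine2*, *Nr5a2* and *Kitl*. In the RNP pool 3 of the 12 were higher in KO without overlap, against 20.7% of 9931 genes tested, and 0 lower. The 3 were *Inha*, *Fshr* and, below 1 FPKM, *Amh*. In this pool *Inha* would pass the filter only through KO, and *Amh* would not pass it. *Amhr2* and *Foxl2* were at 0 in every polysome and WT RNP library. In WT, the oocyte markers summed to 21720 to 24109 FPKM in the polysome and 6139 to 6890 in the RNP pool, and in KO to 22243 to 24985 and 7235 to 7472. *Gdf9*, at 14480 to 18497 FPKM, made up most of each polysome sum. Of the 10 oocyte markers, 3 were higher in KO and 3 lower without overlap in each pool. Polysome *Ddx4*, *Nlrp5* and *Kit* were higher and *Dazl*, *Zar1* and *Mos* lower. RNP *Gdf9*, *Nlrp5* and *Figla* were higher and *Bmp15*, *Dazl* and *Mos* lower. The shares of all genes that were higher are those given above. The share of all genes lower without overlap is not given here for either pool. The counts of lower markers, of oocyte or granulosa type, are therefore not read as a result. In bulk RNA, fewer cells of a type and less RNA per cell cannot be told apart.

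*Zp3* was the most abundant of the 5 transcripts in every library. In the WT polysome libraries it stood at 1148, 1243 and 1474 FPKM, and among the genes above 0 it ranked between 33 and 50 from the top. *Astl* followed at 880, 952 and 793 FPKM, ranking between 63 and 74. *Zp1* stood at 146, 164 and 208 FPKM, *Cd9* at 108, 92.1 and 69.6, and *Zp2* was lowest at 35.2, 39.1 and 50.2. No neighbours in this order overlapped in WT, in either pool. In KO, by contrast, *Zp1* and *Cd9* overlapped in the polysome pool, and *Astl* and *Cd9* overlapped in the RNP pool. Since FPKM is scaled by length, these are levels per length of transcript.

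**Figure D1:**
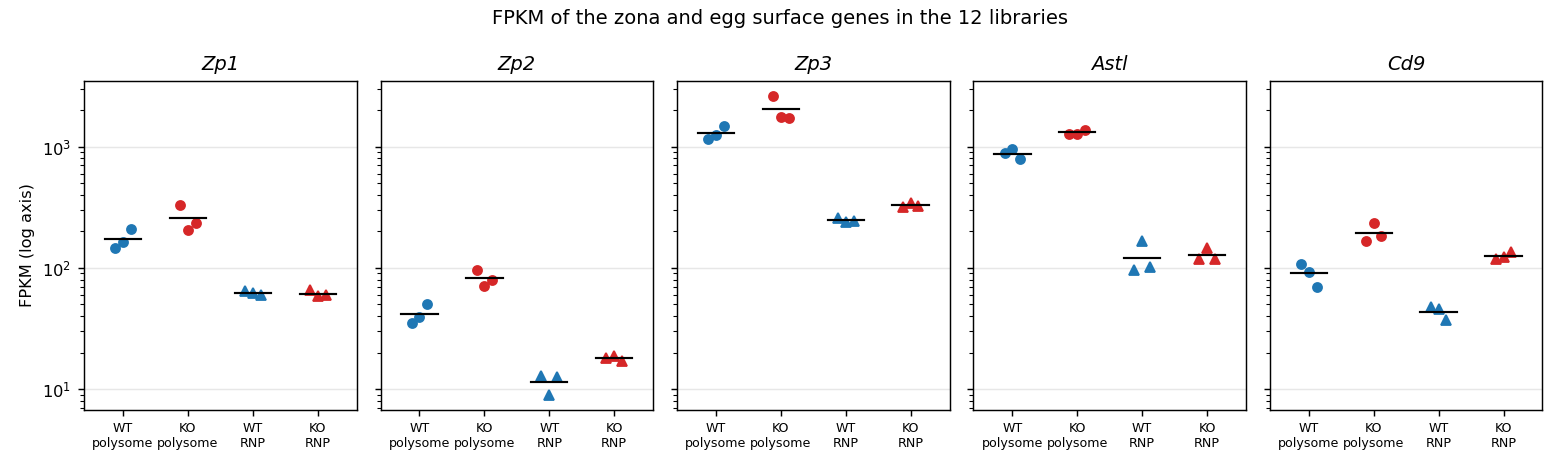
FPKM (log axis) of *Zp1*, *Zp2*, *Zp3*, *Astl* and *Cd9* in the 12 libraries; circles are polysome and triangles RNP libraries, blue WT and red KO, and each bar is the mean of 3 libraries. *Zp3* is highest in every group, the polysome libraries lie above the RNP libraries of the same genotype for every gene, and the KO libraries of *Cd9* lie above the WT libraries in both pools.

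Relative to their own pool, the 5 transcripts were more abundant in the polysome than in the RNP pool in WT oocytes. *Astl* was the most skewed and *Cd9* the least. *Astl* stood at 96.2, 167 and 101 FPKM in the WT RNP libraries and at 880, 952 and 793 in the polysome libraries, a 7.20-fold difference of means. *Zp3* stood at 257, 238 and 243 FPKM in the RNP and at 1148, 1243 and 1474 in the polysome libraries (5.23-fold). The libraries of both pools did not overlap for either gene.

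All 5 members passed the test in WT (limma, Benjamini-Hochberg adjusted p under 0.05), where 7.97% of 9574 genes were called higher in the polysome pool. All 5 also lay higher there without overlap, as did 16.7% of genes. The difference on the log2(FPKM + 1) scale was 2.88 ± 0.20 (SE) for *Astl* (adjusted p = 6.89e-05), the 27th largest of all genes tested. For *Zp3* it was 2.38 ± 0.11 (adjusted p = 6.97e-06), and only 0.721% of genes lay higher. *Zp2*, at 12.98, 9.01 and 12.6 FPKM in the WT RNP pool, differed by 1.76 ± 0.27 (adjusted p = 0.00383). *Zp1*, at 65.1, 62.5 and 59.6 FPKM there, differed by 1.44 ± 0.17 (adjusted p = 0.00108). *Cd9*, at 47.4, 46.2 and 37.0 FPKM there, differed by 1.02 ± 0.22 (adjusted p = 0.0157), and its call was lost without the WT RNP library of replicate 3 (0.91, adjusted p = 0.0567). The median of all genes was -0.09.

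In KO oocytes *Astl* and *Zp3* again had the largest differences of the 5 and *Cd9* the smallest, while *Zp2* and *Zp1* lay within their SE of each other. The comparisons between pools use the same libraries as the comparisons between genotypes that follow. All 5 were again called, where 15.5% of 9851 genes were called higher in the polysome pool, and all 5 lay higher there without overlap, as did 22.5% of genes. The log2 difference was 3.36 ± 0.10 for *Astl* (adjusted p = 1.64e-07), the 6th largest of all genes tested. It was 2.61 ± 0.15 for *Zp3*, 2.12 ± 0.16 for *Zp2* and 2.03 ± 0.17 for *Zp1*. For *Cd9* it was 0.62 ± 0.14 (adjusted p = 0.00910), which 21.1% of genes exceeded. Fold differences of mean FPKM were 10.3 for *Astl*, 6.22 for *Zp3*, 4.56 for *Zp2*, 4.23 for *Zp1* and 1.56 for *Cd9*.

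**Figure D2:**
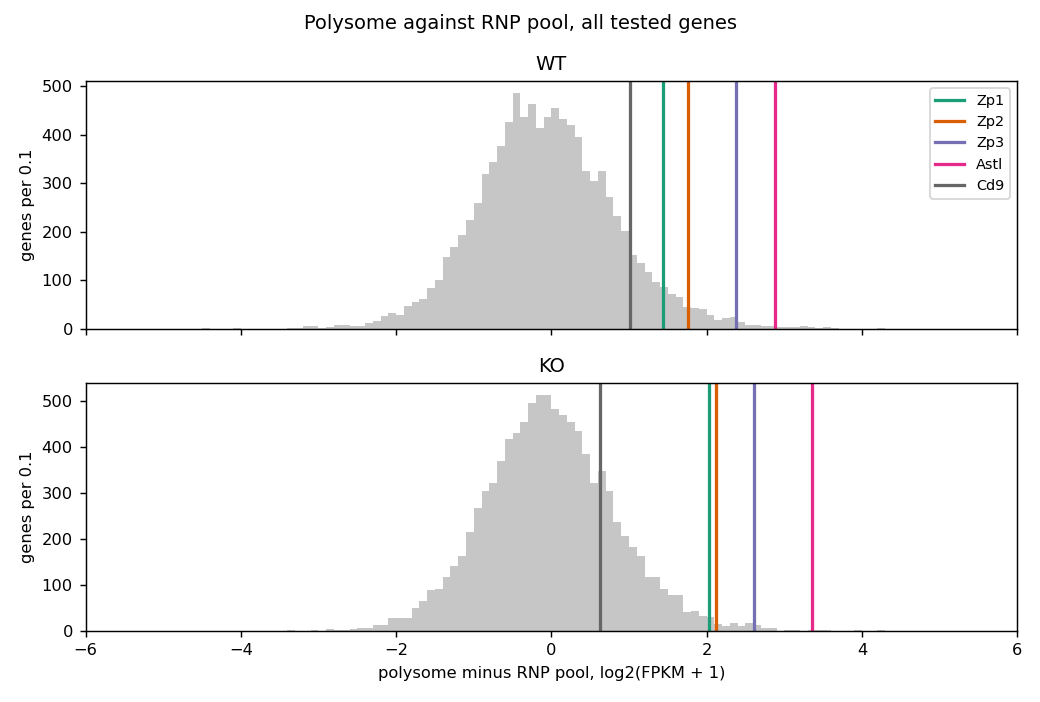
Distribution of the polysome minus RNP difference in log2(FPKM + 1) over the genes tested in WT (upper) and KO (lower), as genes per bin of 0.1, with a line for each member. *Astl* and *Zp3* lie in the far right tail in both genotypes (2.88 and 2.38 in WT, 3.36 and 2.61 in KO), and *Cd9* lies nearest to the bulk of genes.

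In the polysome pool, *Zp2*, *Zp3*, *Astl* and *Cd9* were higher in KO than in WT, and *Zp1* did not pass the test. *Cd9* showed the largest of these differences. It stood at 108, 92.1 and 69.6 FPKM in WT (90.0 ± 19.5, SD, n = 3) and at 168, 235 and 185 FPKM in KO (196 ± 34.7, n = 3). Each KO library lay above every WT library, 2.17-fold on average. The log2 difference was 1.12 ± 0.20 (SE) with an adjusted p of 0.0121, which 9.43% of genes exceeded. The granulosa and cumulus markers that were also higher in these KO libraries are given above, and their part in the *Cd9* result was not tested.

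*Zp2*, which encodes the sperm-binding component of the coat, stood at 35.2, 39.1 and 50.2 FPKM in WT and at 96.2, 71.5 and 78.9 in KO polysome libraries. The groups did not overlap, and the means were 41.5 ± 7.76 and 82.2 ± 12.7 (SD, n = 3), a 1.98-fold difference. The log2 difference was 0.97 ± 0.21 with an adjusted p of 0.0219. The call was lost when the WT library of replicate 1, or any 1 of the KO libraries, was left out, with an adjusted p of at most 0.0828.

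*Zp3*, which forms the filaments together with *Zp2*, stood at 1148, 1243 and 1474 FPKM in WT and at 2614, 1763 and 1736 in KO polysome libraries. Every KO library lay above the WT libraries, with the KO library of replicate 1 well above the other KO libraries. The difference was 1.58-fold by means and 0.64 ± 0.17 on the log2 scale (adjusted p = 0.0457). It lay close to the threshold, and the call was lost on leaving out any 1 library except the WT library of replicate 3 (log2 differences between 0.45 and 0.74, highest adjusted p 0.109).

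*Zp1*, the cross-linker, stood at 146, 164 and 208 FPKM in WT and at 333, 207 and 237 in KO polysome libraries. The groups overlapped, since the KO library of replicate 2 lay below the highest WT library. The log2 difference of 0.56 ± 0.20 did not pass the test (adjusted p = 0.120, 95% interval 0.10 to 1.03), and it was 0.37 without the KO library of replicate 1. Across the KO polysome libraries, *Zp1*, *Zp2* and *Zp3* were all highest in replicate 1, the library in which *Cd9* was lowest.

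*Astl* stood at 880, 952 and 793 FPKM in WT and at 1276, 1276 and 1374 in KO polysome libraries. The groups did not overlap, with means of 875 ± 79.7 in WT and 1308 ± 56.6 in KO (SD, n = 3). The KO libraries of replicates 1 and 2 hold the identical deposited value, so the KO spread may be understated. The difference was 1.50-fold by means and 0.58 ± 0.10 on the log2 scale (adjusted p = 0.0105). The call stood when any 1 of the 6 libraries was left out, as did that of *Cd9*.

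Of the 5 members, 4 were thus called higher in KO polysome libraries, against 5.64% of 9536 genes, and the same 4 had no overlap, against 18.2% of genes in that direction. The median log2 difference was 0.64 over the 5 members and 0.10 over all genes tested. All 4 calls were lost without the intensity trend of the test, at adjusted p of 0.0692 for *Cd9*, 0.0793 for *Zp2*, 0.161 for *Astl* and 0.204 for *Zp3*.

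In the RNP pool, *Cd9* was again much higher in KO, *Zp3* was modestly higher, and the other 3 did not pass the test. *Cd9* stood at 47.4, 46.2 and 37.0 FPKM in WT (43.5 ± 5.70, SD, n = 3) and at 118, 124 and 136 in KO (126 ± 9.46, n = 3). The KO libraries lay far above the WT libraries, at 2.89 times their mean. The log2 difference of 1.52 ± 0.14 (adjusted p = 0.000180) was the 288th largest of 9931 genes, and it was called under every alternative tried and with each library left out. In the same RNP libraries *Inha* was at 0 to 0.240 FPKM in WT and 3.80 to 11.0 in KO, *Fshr* at 4.12 to 5.62 and 7.57 to 13.6, and *Gja1* at most 0.583 in either genotype. The part of these markers in the *Cd9* result was not tested.

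*Zp3* stood at 257, 238 and 243 FPKM in WT and at 316, 344 and 322 in KO RNP libraries. The groups did not overlap and the spread within each was small. The difference was 1.33-fold by means and 0.41 ± 0.08 on the log2 scale (adjusted p = 0.00869), and it was called with each library left out. Without the intensity trend, or in 1 fit over all 12 libraries, it was not (adjusted p = 0.128 and 0.0671).

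*Zp2* stood at 12.98, 9.01 and 12.6 FPKM in WT and at 18.3, 18.8 and 17.1 in KO RNP libraries. The groups did not overlap, yet the log2 difference of 0.62 ± 0.23 did not pass the test (adjusted p = 0.0846, 95% interval 0.11 to 1.13). *Zp1* stood at 65.1, 62.5 and 59.6 FPKM in WT and 65.2, 58.6 and 59.7 in KO RNP libraries. These values overlapped almost fully, and the 95% interval of its log2 difference ran from -0.31 to 0.26 (-0.03, adjusted p = 0.899). *Astl* stood at 96.2, 167 and 101 FPKM in WT and at 118, 145 and 118 in KO, with the KO libraries inside the WT range. Its log2 difference was 0.10 (adjusted p = 0.765, 95% interval -0.35 to 0.56).

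Of the 5 members, 2 were called higher in the KO RNP pool, against 10.5% of genes, and 3 had no overlap, against 20.7% of genes in that direction. The median log2 difference was 0.41 over the members and 0.05 over all genes tested.

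**Figure D3:**
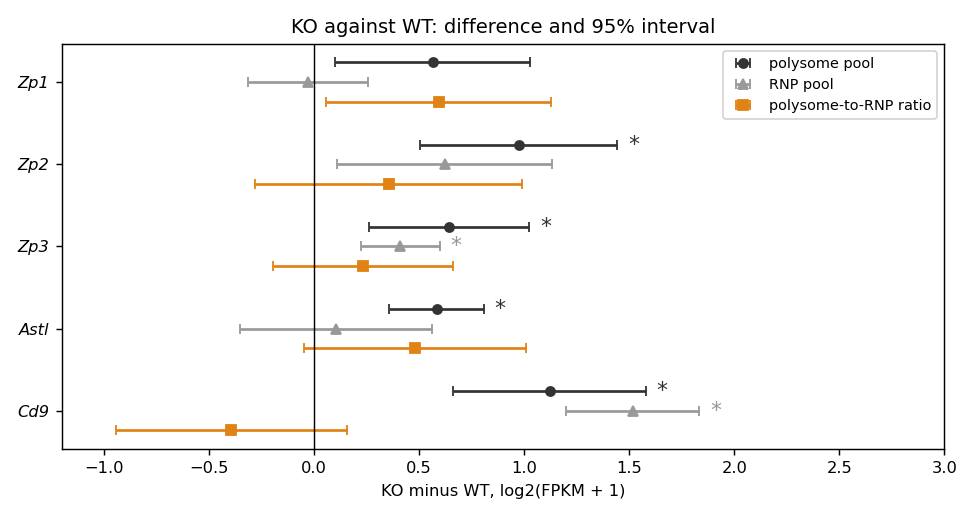
KO minus WT difference in log2(FPKM + 1) of each member for the 2 pools and for the ratio of polysome to RNP, with 95% intervals; an asterisk marks an adjusted p under 0.05. *Cd9* is higher in KO in both pools (1.12 and 1.52), *Zp1* and *Astl* lie near 0 in the RNP pool, and no ratio is marked.

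Whether the change differed between pools was tested in 1 model of the 12 libraries, as the interaction between genotype and pool. No member was called by limma, where 0.237% of 10949 genes were. At an unadjusted p under 0.05, 1 member, *Zp1*, passed, against 11.1% of genes. The KO polysome-to-RNP ratio of *Zp1* was higher than that of WT by 0.59 ± 0.25 on the log2 scale (unadjusted p = 0.0326, adjusted p = 0.393, 95% interval 0.06 to 1.13). The difference was 0.48 for *Astl* (adjusted p = 0.503, interval -0.05 to 1.01), 0.35 for *Zp2* (adjusted p = 0.717, interval -0.28 to 0.99) and 0.23 for *Zp3* (adjusted p = 0.721, interval -0.19 to 0.66). *Cd9* lay in the other direction at -0.39 (adjusted p = 0.611, interval -0.95 to 0.16). Single libraries moved some of these values, to 0.23 for *Astl* without the WT RNP library of replicate 2, to 0.04 for *Zp3* without the KO polysome library of replicate 1, and, without the WT polysome library of replicate 1, to 0.15 for *Zp3* and -0.25 for *Cd9*. The intervals leave room for differences of up to 1.13 on the log2 scale, so a shift between pools was not detectable rather than shown to be absent.

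The ratio of 2 members within 1 library does not depend on how that library was scaled. For 5 ratios in each pool, 10 comparisons of KO with WT were made, each by an exact two-sided permutation test whose smallest possible p with 3 against 3 libraries is 0.1. There was no overlap between genotypes in 6 of them, which thus reached that p of 0.1. Among ratios of all tested genes to *Zp3* or *Zp2*, 33.1% to 45.9% had no overlap, depending on pool and reference. The 10 comparisons are not independent, since the ratios share genes. The ratio of *Zp1* to *Zp2* follows from those of *Zp1* and *Zp2* to *Zp3*. None of the 10 can pass 0.05 in this design.

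The ratio of *Zp1* to *Zp2* was lower in KO in both pools. In the WT polysome libraries it was 4.16, 4.20 and 4.15, a narrow range, and in KO it was 3.46, 2.89 and 3.00. In the RNP pool it was 5.01, 6.94 and 4.75 in WT and 3.57, 3.12 and 3.50 in KO. Of the ratios of other genes to *Zp2*, 45.5% in the polysome and 45.9% in the RNP pool had no overlap in either direction. *Zp2* relative to *Zp3* was higher in KO in both pools, with geometric means of 0.0320 in WT and 0.0408 in KO polysome libraries, and 0.0462 and 0.0551 in RNP libraries.

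*Zp1* relative to *Zp3* was 0.253, 0.262 and 0.245 in WT and 0.206, 0.170 and 0.186 in KO RNP libraries, with no overlap. In the polysome pool that ratio overlapped, at 0.128, 0.132 and 0.141 in WT and 0.127, 0.117 and 0.136 in KO (exact permutation p = 0.4). *Cd9* relative to *Zp3* was 0.185, 0.194 and 0.152 in WT and 0.372, 0.359 and 0.423 in KO RNP libraries, again with no overlap, whereas it overlapped in the polysome pool. *Astl* relative to *Zp3* overlapped in both pools. Of the ratios of other genes to *Zp3*, 33.1% in the polysome and 42.0% in the RNP pool had no overlap.

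**Figure D4:**
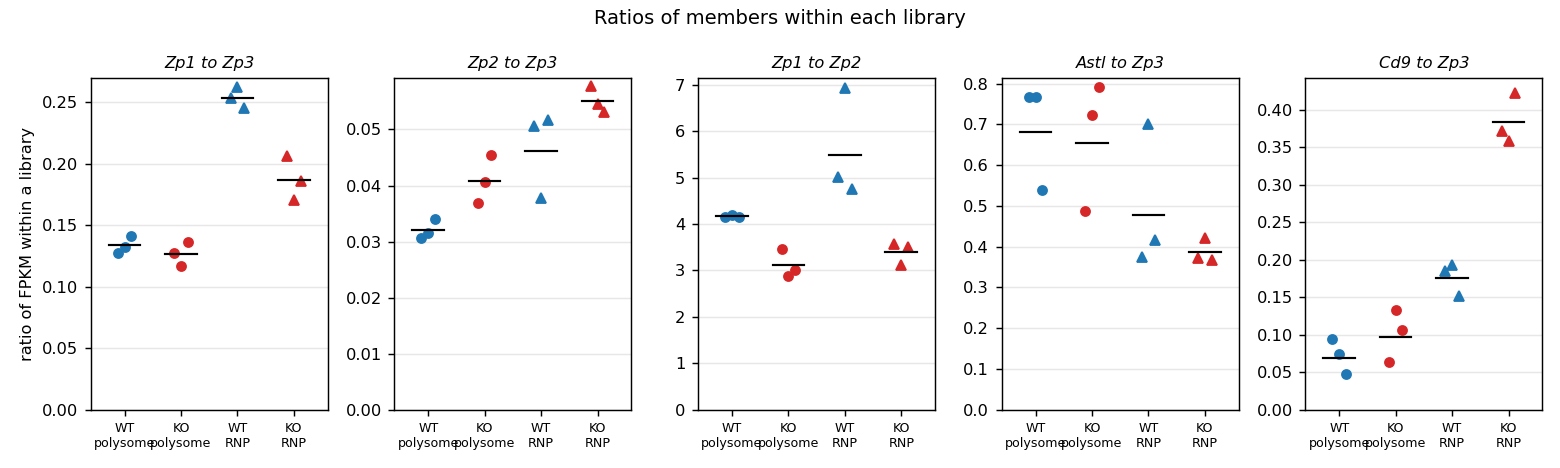
Ratio of the FPKM of 2 members within each library (linear axes from 0), for 5 ratios; circles are polysome and triangles RNP libraries, blue WT and red KO, and bars are geometric means. The KO libraries lie below the WT libraries for *Zp1* to *Zp2* in both pools (geometric means 3.11 against 4.17 in the polysome and 3.39 against 5.49 in the RNP pool), and above them for *Cd9* to *Zp3* in the RNP pool.

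The transcripts that followed the members most closely over the 12 libraries were ranked by Pearson's r of log2(FPKM + 1), among the 6680 genes whose mean reached 5 FPKM. The libraries fall into 2 pools and 2 genotypes, so these coefficients mostly reflect the differences between groups. *Zp1* was nearest to *Zp3* (r = 0.986), then to *Ldhb* (0.977) and *AU015836* (0.975). *Zp3* was nearest to *Oas1e* (0.993), *Ldhb* (0.992) and *Padi6* (0.991), and *Zp2* to *Aldh2* (0.987), *Fbxw14* (0.985) and *Pabpc1l* (0.985). *Astl* was nearest to *Spryd3* (0.991), *Ldhb* (0.991) and *Kmt2d* (0.990). *Cd9* was nearest to *Armc1* (0.990), *Rrm2* (0.987) and *Insig1* (0.982). Neither *Cd9* nor *Zp2* shared a nearest gene with another member.

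Other genes of the egg coat, the egg membrane and the cortical granules were followed in lists of 36 genes, 34 of them with an entry. In the polysome pool 4 of the 25 tested were called higher in KO and 0 lower, against 5.64% and 4.73% of all genes. Of these 4, *Ptgfrn* passed the filter on low values only through its KO libraries, which leaves 3. In the RNP pool 7 of 26 were higher and 3 lower, against 10.5% and 10.2%, and *Igsf8* passed the filter only through its WT libraries, which leaves 2 lower. In the polysome-to-RNP ratio 0 of 28 were called by limma, against 0.237% of genes, and 6 had an unadjusted p under 0.05, against 11.1%.

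Among the 7 egg coat partners tested, none was called by limma in the polysome pool, against 5.64% of genes higher and 4.73% lower. At an unadjusted limma p under 0.05, 1, *Oosp3*, passed there, as did 2505 of 9536 genes. In the RNP pool 3 were called higher and 1 lower, against 10.5% and 10.2% of genes. The median log2 difference was -0.25 in the polysome and 0.31 in the RNP pool. *Figla*, the activator of the zona genes, stood at 14.0, 6.58 and 10.1 FPKM in WT and at 26.8, 22.1 and 26.1 in KO RNP libraries. The groups did not overlap, with a log2 difference of 1.26 ± 0.28 (adjusted p = 0.0123). In the polysome pool *Figla* overlapped, at 54.3, 32.1 and 48.8 FPKM in WT and 55.5, 50.3 and 87.3 in KO (0.50, adjusted p = 0.297). The oocyte-secreted protein genes *Oosp1* and *Oosp2* were higher in KO in the RNP pool (0.31 and 0.76), and *Oosp3* was lower there (-1.03, adjusted p = 0.00243).

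Among the egg membrane partners, 8 were tested in the polysome and 9 in the RNP pool. *Izumo1r*, which encodes JUNO, the egg receptor for sperm IZUMO1, stood at 207, 243 and 213 FPKM in WT and at 320, 340 and 328 in KO RNP libraries. It was called higher there (0.58 ± 0.09, adjusted p = 0.00279), but not in the polysome pool (0.04, adjusted p = 0.836), and its ratio did not pass the interaction test (-0.53, adjusted p = 0.143). *Cd81*, the tetraspanin most like *Cd9* in egg fusion, was at most 4.78 FPKM in a library and was not tested between genotypes in either pool.

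The immunoglobulin-family genes *Ptgfrn* and *Igsf8*, whose products bind CD9, were low in these oocytes. *Ptgfrn* stood at 0, 0 and 0.0670 FPKM in WT and at 4.55, 5.29 and 4.87 in KO polysome libraries, a difference of 2.53 on the log2(FPKM + 1) scale. Its RNP values overlapped, at 2.80, 1.67 and 1.11 FPKM in WT and 4.48, 2.10 and 3.91 in KO. It was not called by limma there (0.65, adjusted p = 0.285). *Igsf8* stood at 1.40, 3.95 and 3.64 FPKM in WT and at 0.129, 0 and 0.150 in KO RNP libraries, a difference of -1.80. *Ptgfrn* in the polysome and *Igsf8* in the RNP pool passed the filter at 1 FPKM only through the genotype in which they were high. Their adjusted p in those pools is therefore not read as a test. At such levels a difference on this scale also depends on the added 1 and is no bound on a fold. The integrin gene *Itga9* was lower in the KO RNP pool (-1.12, adjusted p = 0.00319).

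Of the cortical granule partners, 10 were tested in each pool, with 3 called higher in each and 0 lower. Over all genes, 5.64% were called higher in the polysome and 10.5% in the RNP pool. *Fetub*, which encodes fetuin-B, the inhibitor of ovastacin known mainly as a liver product, stood at 117, 88.7 and 99.0 FPKM in WT and at 191, 146 and 194 in KO polysome libraries. Its difference was 0.79 in the polysome (adjusted p = 0.0233) and 0.74 in the RNP pool (adjusted p = 0.00793), so *Fetub* was the one partner gene called in both pools. The chaperone gene *Calr* (0.46) and the membrane fusion ATPase gene *Nsf* (0.70) were called in the polysome pool, and the vesicle fusion genes *Rab3a* (0.90) and *Snap23* (0.89) in the RNP pool. *Calr* (0.41, adjusted p = 0.113) and *Nsf* (0.38, adjusted p = 0.131) were not called by limma in the RNP pool. *Rab3a* lay in the other direction in the polysome pool (-0.30, adjusted p = 0.520), and *Snap23* was at 0.14 there (adjusted p = 0.802).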

How the data were processed

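Per the labels and the study's methods, RNA of gradient pools was amplified by Smart-seq2 and read from both ends over 150 bp. The authors mapped reads to mm10 with TopHat2 2.0.13 and deposited FPKM per gene symbol and library, made with Cufflinks 2.2.1. The annotation release is not given in the sources used here. Sources differ on the densest sucrose (50% or 55%) and on the library kit. The 54 columns of Cuffdiff comparisons (fold changes, p-values and the like) were not used.

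Groups and replicate numbers came from the labels. limma 3.58.1 in R 4.3.3, with an intensity trend, was run on log2(FPKM + 1) of all genes with at least 1 FPKM in at least 3 libraries of a comparison, with Benjamini-Hochberg adjustment over all of them at 0.05. Depth was estimated with 200 bases taken off the annotated transcript length. The method was tested on simulated data with known differences. These were drawn with independent spread, so they cannot show how a shared origin of libraries would matter. Python 3.11.15, pandas 2.3.3, numpy 2.4.6, scipy 1.17.1 and matplotlib 3.10.9 did the rest. Alternatives were pseudocounts of 0.1 and 5, no filter or one at 5 FPKM, rescaling to a common median, quantile normalization, no trend, a replicate block, 1 fit over 12 libraries, and leaving out each library.

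Members and gene lists were chosen with earlier results of these data known. The genes named are the 5 members, *Lsm14b*, partner genes called between genotypes together with *Figla*, *Izumo1r* and *Cd81*, and the 3 genes nearest to each member. The cell type markers, the overlapping noncoding genes and *Mir300* are named besides.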

Additional observations from a re-analysis of the deposited data

How the results depend on the processing

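Of the comparisons between genotypes, the calls of members changed under more settings in the polysome than in the RNP pool. Without the intensity trend 508 genes and 0 members (4 at an unadjusted p under 0.05) were called by limma in the polysome pool, at log2 differences of 0.97 for *Zp2* (adjusted p = 0.0793), 0.64 for *Zp3* (0.204), 0.58 for *Astl* (0.161) and 1.12 for *Cd9* (0.0692). Polysome *Zp3* also lost its call at a pseudocount of 0.1 (0.64, adjusted p = 0.0639), with no filter (0.64, 0.138), after rescaling to the same median (0.66, 0.0560), after quantile normalization (0.48, 0.0984) and with the replicate block (0.64, 0.0709). The number of genes called was 545 with no filter and 1843 in 1 fit over all 12 libraries, against 989, and in that fit *Zp1* was called (0.56, adjusted p = 0.0388). In the RNP pool 1 member was called without the trend and in the fit over 12 libraries, with *Zp3* at 0.41 and adjusted p of 0.128 and 0.0671. *Zp1*, near 0 there, changed sign after rescaling to the same median (0.0344).

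In the polysome-to-RNP ratio 26 genes were called, 6 without the trend and 0 with the replicate block that pairs pools, where limma put 1129 genes at an unadjusted p under 0.05. Polysome against RNP, 728 genes were called in WT without the trend and 2302 in the fit over 12 libraries, against 1406. *Cd9* was not called without the trend in WT (1.02, adjusted p = 0.0705) or in KO (0.62, adjusted p = 0.0588). Same-numbered libraries did not deviate together (r between -0.021 and 0.026 over 10949 genes), so these values show no pairing by number. Such a correlation over all genes cannot exclude that same-numbered libraries share an origin. The block changed no other call of a member.

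With 1 library left out, genes called ranged from 383 to 790 in the polysome pool, with 35.5% to 62.2% of calls higher in KO, from 1255 to 1911 in the RNP pool, from 0 to 46 in the ratio, and from 780 to 1212 between the WT pools. Members called ranged from 2 to 4 in the polysome pool. Log2 differences ranged from 0.86 to 1.12 for polysome *Zp2*, from 0.45 to 0.74 for polysome *Zp3*, from -0.0746 to 0.0016 for RNP *Zp1*, from -0.0401 to 0.354 for RNP *Astl* and from 0.87 to 1.19 for *Cd9* between the WT pools. In the ratio they ranged from 0.23 to 0.62 for *Astl*, from 0.04 to 0.33 for *Zp3* and from -0.57 to -0.25 for *Cd9*, none of them called. At a pseudocount of 5, *Zp1* (1.97) lay above *Zp2* (1.91) between the KO pools. The causes were not tested. Depth limits *Zp2* in the RNP pool most, and Smart-seq2 fragments without molecular identifiers are not independent molecules, so counting error is a lower limit.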

Other observations

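*Astl* was listed at the same 1275.51 FPKM in the KO polysome libraries of replicates 1 and 2. Over the 66 pairs of libraries, this was the only value above 0 that both libraries of a pair shared for the same gene. The libraries differed at their other genes, with r = 0.934 between them over 10949 genes, so they were kept as separate replicates.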
